A study of Rattus norvegicus with 15 samples.

Results

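The 146 names described here are those of a mature miRNA count table from rat kidney that carry the species code of another organism. They were taken by a rule on names and categories alone: all 155 of the 600 rows outside the table's category of unique mature rat names, less 9 that the rule leaves out by name, among them bta-miR-3600 and hsa-miR-4454. The other 445 rows are rat names. Of the 146 first names, 42 carry the mouse code, 41 the human code and 14 the cattle code, and 37 codes occur in all, down to those of fly, sea urchin, worm and virus miRNAs. Together they held 1.80% of all reads counted.

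Small RNA was sequenced from kidney cortex of PCK rats (PCK/CrljCrlPkhd1pck/CRL), whose Pkhd1 mutation gives a cystic kidney like that of autosomal recessive polycystic kidney disease. All 3 groups carry the mutation, and no group without it is compared here. From 6 weeks of age and for 8 weeks the rats ate Dyets chow with 0.01% NaCl (salt-deficient), 0.4% NaCl or 4% NaCl (high salt), and 5 libraries were counted per diet. Per the labels, libraries came from pools of 2 to 3 rats, with 2 pools for a condition, a number at odds with 5 libraries per diet, so libraries may share animals and p-values measure the spread between libraries. Numbers given to libraries only name them. In bulk tissue, fewer cells of a type and less RNA per cell cannot be told apart.

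miRNAs are short RNAs cut from hairpin precursors, and the bases from the second to the eighth, the seed, do most of the pairing with target mRNAs. Names are given by species code, number and arm (5p or 3p), and close relatives in different animals often have the same sequence, so that a rat read can be listed under another animal's name. A number assigned in 1 species can also have no relative in another. Some hairpins are annotated on both strands of the same locus under different numbers, as for miR-423 and miR-3184 in human.

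The sequences behind the rows are not in the count table. For 13 of the 146 names RefSeq (GRCr8) lists a rat mature miRNA of the same number, letter and arm, and whether a row counts that rat sequence cannot be read from the table. Of these miRNAs, 5 with mammalian names in the text are shown: let-7g-5p, miR-148a-3p and -5p, miR-149-5p and miR-1247-5p. Only miR-149-5p of the 5 has the name of a member called below. Also shown are miR-709 and the rat miRNAs to which members are compared. Capitals mark the seed.
rno-miR-148a-3p: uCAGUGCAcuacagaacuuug
rno-miR-148b-3p: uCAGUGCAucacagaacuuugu
rno-miR-152-3p: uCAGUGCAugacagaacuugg
rno-miR-148a-5p: aAAGUUCUgagacacucugacuc
rno-let-7g-5p: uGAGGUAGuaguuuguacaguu
rno-let-7i-5p: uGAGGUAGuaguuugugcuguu
rno-miR-149-5p: uCUGGCUCcgugucuucacuccc
rno-miR-1247-5p: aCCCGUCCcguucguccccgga
rno-miR-709: gGAGGCAGaggcaagagga
rno-miR-10a-5p: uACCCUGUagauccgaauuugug
rno-miR-542-5p: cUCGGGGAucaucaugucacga
rno-miR-423-5p: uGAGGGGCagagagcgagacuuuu
rno-miR-103-3p: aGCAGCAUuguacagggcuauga
miR-148a-3p, miR-148b-3p and miR-152-3p share 1 seed. Counted from the 5′ end, miR-148a-3p differs from miR-148b-3p by C9U and U10C, and from miR-152-3p by C9U, U10G and U20G. let-7g-5p differs from let-7i-5p by A17G and A19U. On GRCr8, Mir148a lies on the minus strand of chromosome 4, with its 3p arm at chr4:81664447-81664467 and its 5p arm at chr4:81664483-81664505. The 5p arms of let-7g and miR-149 lie on the plus strand at chr8:115701026-115701047 and chr9:100861814-100861836, and that of miR-1247 on the minus strand at chr6:135105931-135105952.

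Library totals ran from 4.17 to 7.83 M reads. Levels are given as scaled CPM (CPM taken on a library size adjusted by TMM factors) and are not divided by length (the RefSeq rat sequences used here are 19 to 24 bases long). The kidney epithelial names miR-192-5p, miR-194-5p, miR-204-5p, miR-30a-5p and miR-10a-5p all had rows and summed to 268592 to 653629 scaled CPM. A large part of that sum was miR-10a-5p, which alone had 166959 to 515679 scaled CPM. The 4 leukocyte names summed to 1521 to 4345, the 3 red blood cell names to 5.85 to 66.5, and 2 of 3 striated muscle names to 35.3 to 56.4. The liver name miR-122-5p and the neuronal name miR-124-3p have no row in the table used here.

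The 146 names held 1.77 ± 0.237% of reads on 0.01% NaCl (mean ± SD, n = 5), 1.86 ± 0.305% on 0.4% and 1.80 ± 0.146% on 4%, ranges that overlap. Most of these reads lay under few names: the 6 most abundant held 79.9% of them and the 10 most abundant 85.8%. Another 38 names had a mean under 10 reads. By the nearest species among the names joined in a row, 48 rows were rodent (22.3% of the reads), 63 other mammals (39.5%), 15 other vertebrates (12.3%) and 20 invertebrates, plants or viruses (25.9%). By number, 7 had a rat row of the same number, letter and arm (0.134% of the reads), 27 had a rat row of the same number only (58.7%), and 112 had none (41.1%).

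**Figure D1:**
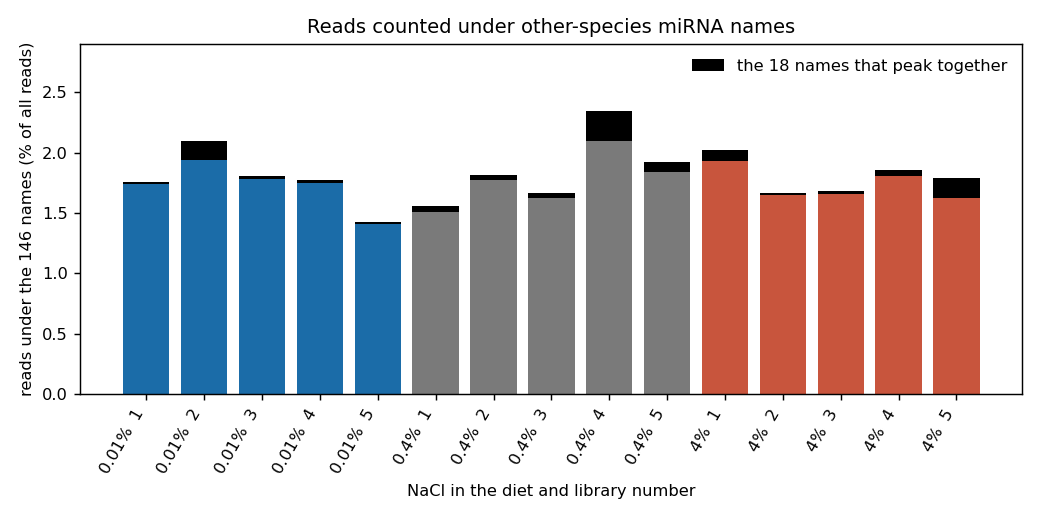
Reads under the 146 names as a percentage of all reads (y axis) in each of the 15 libraries (x axis, diet and library number), with the black part for the 18 names that peak together. Libraries lie between 1.43% and 2.35%, and the black part reaches 0.157%, 0.246% and 0.165% in library 2 of the 0.01% diet, library 4 of the 0.4% diet and library 5 of the 4% diet.

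The most abundant name was dme-miR-10-3p, a row that joins 5 names and carries the number of miR-10, whose genes lie in the Hox clusters. It averaged 25226 reads beside 1580210 for rat miR-10a-5p, the most abundant name of these kidneys, whose name is that of the other arm. Rat miR-10a-3p averaged 621 reads and rat miR-10b-5p 370. dme-miR-10-3p stood at 5889.9, 6126, 5132, 4469.9 and 6086 scaled CPM in libraries 1 to 5 of the 0.01% diet, at 4471, 4118, 5070.3, 3013 and 3173 in those of the 0.4% diet and at 3760.4, 3757, 3742, 3559 and 3797 in those of the 4% diet. The 0.01% libraries all lay above the 4% libraries, and library 4 of the 0.01% diet lay within the range of the 0.4% diet. dme-miR-10-3p was higher on 0.01% NaCl than on 0.4% NaCl by 0.48 ± 0.13 (log2 fold change ± SE, quasi-likelihood test in edgeR, Benjamini-Hochberg adjustment, adjusted p = 0.0157) and than on 4% NaCl by 0.57 ± 0.13 (adjusted p = 0.0078). Rat miR-10a-5p had 0.54 ± 0.20 in the first comparison and did not pass (adjusted p = 0.0797; 0.0435 without library 4 of the 0.01% diet and 0.0355 without library 3 of the 0.4% diet), and 0.61 ± 0.20 in the second (adjusted p = 0.0446 with all libraries). That second call was lost when any 1 of 10 libraries was left out (library 1, 2, 3 or 5 on 0.01% NaCl, library 2 on 0.4% NaCl or library 1, 2, 3, 4 or 5 on 4% NaCl), with an adjusted p of up to 0.14. It was also lost with upper-quartile factors, on library totals without TMM factors, in limma-voom and without 3 libraries described below for mmu-miR-6240 (adjusted p up to 0.0965). Per library there were 52.6 to 84.7 reads of rat miR-10a-5p for each read of dme-miR-10-3p. bfl-miR-10a-3p, the amphioxus name, was far scarcer at 15.3 ± 3.39 scaled CPM on 0.01% and 9.02 ± 1.18 on 4% NaCl, and was higher on 0.01% by 0.76 ± 0.21 (adjusted p = 0.0191). Rat miR-10a-3p was at 123 ± 12.6 on 0.01% and 105 ± 11.2 on 4% NaCl, with 5.65 to 14.5 reads for each read of bfl-miR-10a-3p.

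hsa-miR-148a-3p came second with a mean of 15198 reads. miR-148a is a broadly expressed miRNA known for repressing the DNA methyltransferase gene Dnmt1. The table has rat rows for miR-148b-3p (4081 reads on average) and miR-152-3p (837), while miR-148a-3p has no row under the rat code and this row joins 16 names of other species. hsa-miR-148a-3p stood at 3082, 2962, 2904, 2659 and 3374 scaled CPM in libraries 1 to 5 of the 0.01% diet, at 2621, 2665, 3194, 2212 and 2115 in those of the 0.4% diet and at 2590.3, 2177, 2468, 2523 and 2385 in those of the 4% diet. The 0.01% libraries all lay above the 4% libraries, and the 0.4% libraries overlapped both. It did not pass in edgeR's quasi-likelihood test after Benjamini-Hochberg adjustment (adjusted p = 0.158 for 0.01% against 0.4%, 0.981 for 4% against 0.4% and 0.0524 for 0.01% against 4%). The last value lies just above the threshold and was under it, with 0.01% higher, with DESeq2 size factors (adjusted p = 0.0363), without the filter (0.0351), with only names averaging 10 CPM or more (0.0327), in DESeq2 (0.0228), with the 2 diets alone (0.0124), and without library 4 of the 0.01% diet (0.0455) or library 3 of the 0.4% diet (0.0261). Leaving out the latter library also brought the comparison of 0.01% with 0.4% past the threshold (adjusted p = 0.0317). Neither relative of the same seed passed: miR-148b-3p had an adjusted p of 0.507 and 0.267 against 0.4% and 4%, and miR-152-3p 0.103 and 0.169. For miR-152-3p, DESeq2 (0.0470) and the fit without library 4 of the 0.01% diet (0.0435) called 0.01% against 0.4%. The 5p arm, hsa-miR-148a-5p, averaged 563 reads, with 27.7 reads of the 3p arm for each (median over libraries).

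Among the other abundant names, gga-miR-1766, a chicken name, averaged 12450 reads and held 2185 ± 102, 2227 ± 410.4 and 2143 ± 277 scaled CPM on 0.01%, 0.4% and 4% NaCl. hsa-miR-103b averaged 11666 reads. Its level was 2055 ± 202, 2159 ± 136 and 1914 ± 151 scaled CPM on the 3 diets. bta-miR-2340, a cattle name with 11225 reads on average, varied more, from 680 to 3860 scaled CPM between libraries. ppy-miR-151b, an orangutan name, held 1205 ± 143.58, 1256 ± 92.9 and 1142 ± 65.5. None of these 4 passed in any comparison (quasi-likelihood test in edgeR, Benjamini-Hochberg adjustment), and hsa-miR-103b alone did so under 1 alternative, on library totals without TMM factors, for 0.01% against 0.4% (adjusted p = 0.0244). mmu-let-7g-5p, of the let-7 family, which holds back proliferation, averaged 92.1 reads beside 48998 for rat let-7i-5p. mmu-miR-1247-5p, the mouse code for a miRNA RefSeq also lists in rat, averaged 659.9 reads and held 139 ± 14, 76.3 ± 34.7 and 128 ± 61.3 scaled CPM, with its lowest library of the 0.4% diet at 20.2 and of the 4% diet at 28.7 scaled CPM, both in library 5.

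Some members kept a nearly fixed ratio to another name over all 15 libraries. Whether 2 such names count the same reads cannot be read from the table. Where both names averaged 200 reads or more, 3 members did so with an SD of the log2 ratio under 0.05. For each read of hsa-miR-3184-3p there were 1.32 of rat miR-423-5p (median over libraries; SD of the log2 ratio 0.0220). The other arms, hsa-miR-3184-5p and rat miR-423-3p, kept no such ratio, with 21.2 to 49.6 reads of the second for each of the first (SD 0.360). hsa-miR-3184-3p stood at 249, 364, 361, 431 and 138 scaled CPM in libraries 1 to 5 of the 0.01% diet, at 237, 377, 182, 389 and 356 in those of the 0.4% diet and at 317, 363, 249, 286 and 216 in those of the 4% diet. The diets overlapped widely, and neither it nor rat miR-423-5p passed in any comparison (edgeR, smallest adjusted p = 0.83 and 0.836). bta-miR-669 and hsa-miR-574-3p were the other pair, with 1.25 reads of the second for each of the first (SD 0.0392). At a lower minimum of 50 reads, bta-miR-3601 joined them, with 1.00 read of rat miR-542-5p for each of its own (SD 0.0279). With an SD under 0.1, hsa-miR-103b with rat miR-103-3p (0.741 for each read, SD 0.0759) and with rat let-7b-3p, a name of another family (SD 0.0973), and ppy-miR-151b with rat miR-28-3p (1.90 for each, SD 0.0568) also counted. ppy-miR-151b was less steady against rat miR-151-3p and rat miR-151-5p, of its own number (SD 0.113 and 0.185). hsa-miR-3529-3p, chosen after its values were seen, had 1.06 reads of rat miR-7a-5p for each of its own (SD 0.0719, mean 49.3 reads). mmu-miR-142b, which in mouse lies on the strand opposite miR-142a, a miRNA of blood cells, had 2.24 reads of rat miR-142-3p for each (SD 0.112). Against rat miR-142-5p its SD was 0.183. The values of both names of a steady pair are uncertain as those of separate miRNAs.

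**Figure D2:**
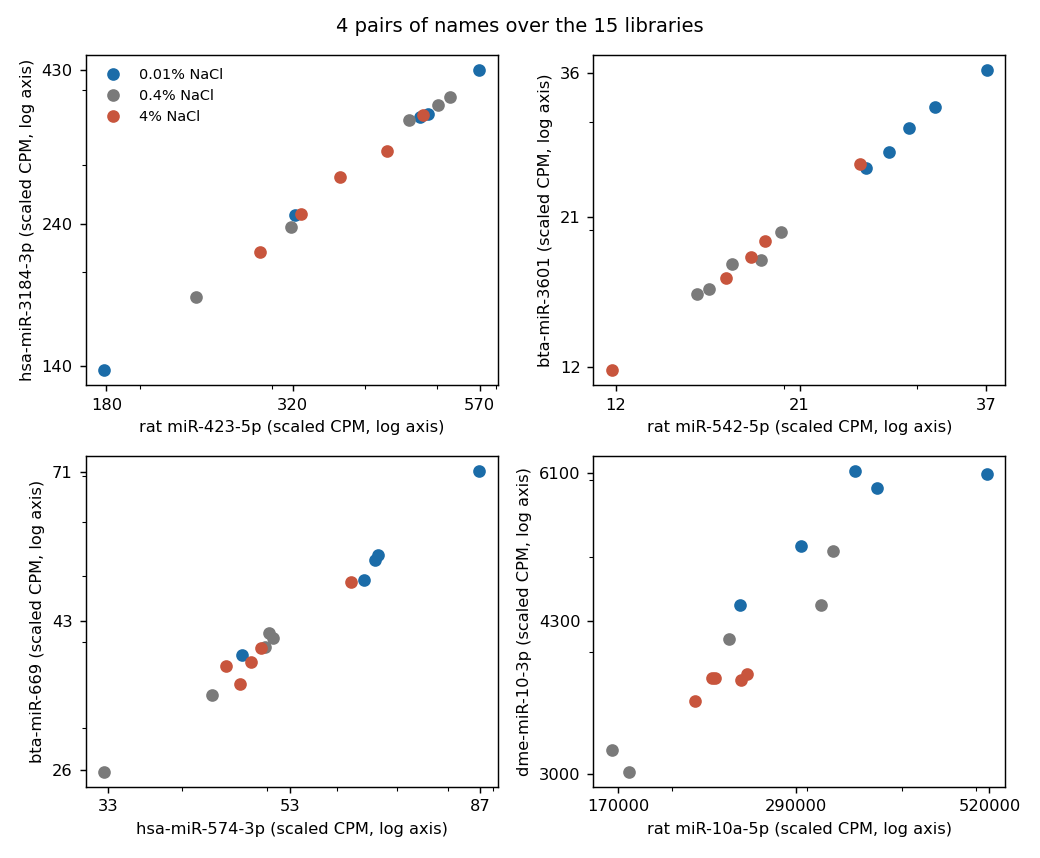
Scaled CPM of a member (y axis, log) against another name (x axis, log), 1 point per library, for hsa-miR-3184-3p, bta-miR-3601, bta-miR-669 and dme-miR-10-3p. The first 3 lie close to a line of fixed ratio (SD of the log2 ratio 0.0220, 0.0279 and 0.0392), while dme-miR-10-3p scatters more about rat miR-10a-5p (SD 0.167).

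The comparison of 0.01% with 0.4% NaCl asks what a salt-deficient diet alters. dme-miR-10-3p, bta-miR-3601, dme-miR-4949-5p, mmu-miR-676-5p, hsa-miR-574-3p and bta-miR-669 rose on 0.01% NaCl, with log2 fold changes from 0.48 to 0.99. bta-miR-1434-5p, blv-miR-B3-3p, dps-miR-1002-3p and mmu-miR-149-5p fell, with values from -1.64 to -0.60. Of the 146 names, 113 passed the filter on low counts and were tested, and 33 were not. Thus 6 were higher and 4 lower (8.85% of the 113), beside 16.8% of all 519 names tested, 7.71% higher and 9.06% lower. Among rat names 18.4% passed. The libraries of the diets did not overlap for 4 members, beside 14.5% of all names. The median log2 fold change was -0.28 over the members tested and -0.0027 over all names. Without library 4 of the 0.4% diet the members' median was -0.055, without the filter -0.14, in limma-voom -0.15, with the 2 diets alone -0.15 and on library totals without TMM factors -0.45.

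bta-miR-3601 had the smallest adjusted p. bta-miR-3601 stood at 26.8, 29.3, 36.4, 31.8 and 25.2 scaled CPM in libraries 1 to 5 of the 0.01% diet, at 15.8, 17.6, 19.9, 17.9 and 16.1 in those of the 0.4% diet and at 19.2, 18.1, 16.8, 25.7 and 11.9 in those of the 4% diet. All 0.01% libraries lay above all 0.4% libraries, and library 4 of the 4% diet reached into their range. It was higher on 0.01% than on 0.4% NaCl by 0.78 ± 0.18 (log2 fold change ± SE, quasi-likelihood test in edgeR, Benjamini-Hochberg adjustment, adjusted p = 0.00583) and than on 4% by 0.71 ± 0.18 (adjusted p = 0.012). Its steady partner, rat miR-542-5p, gave 0.80 ± 0.18 (adjusted p = 0.00513) and 0.74 ± 0.18 (adjusted p = 0.00988, but 0.0936 on library totals without TMM factors), and since both may count the same reads these calls are not independent of those of bta-miR-3601.

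dme-miR-4949-5p stood at 5.93, 7.92, 7.66, 6.35 and 10.1 scaled CPM in libraries 1 to 5 of the 0.01% diet, at 4.16, 3.74, 4.82, 3.44 and 2.93 in those of the 0.4% diet and at 4.2, 7.45, 5.65, 4.13 and 2.59 in those of the 4% diet. It was higher on 0.01% than on 0.4% NaCl, with no overlap, by 0.99 ± 0.26 (quasi-likelihood test in edgeR, Benjamini-Hochberg adjustment, adjusted p = 0.0118), and against 4% did not pass (adjusted p = 0.0747). mmu-miR-676-5p rose from 1.78 ± 0.521 scaled CPM on 0.4% to 3.41 ± 0.96 on 0.01% NaCl, by 0.93 ± 0.27 (adjusted p = 0.0268), again with no overlap. hsa-miR-574-3p rose from 45.3 ± 7.68 to 66.1 ± 14.2 (adjusted p = 0.0356), and its steady partner bta-miR-669 from 36.1 ± 6.5 to 53.1 ± 11.8 (adjusted p = 0.0364), with overlap in both. Since these names may count the same reads, their calls, counted separately among the higher names, are not independent.

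Among the lower names, bta-miR-1434-5p stood at 28.7, 26.7, 31, 28 and 28.5 scaled CPM in libraries 1 to 5 of the 0.01% diet, at 47.1, 38.7, 28.3, 92.2 and 69.4 in those of the 0.4% diet and at 92.9, 60.3, 99.7, 84 and 72.3 in those of the 4% diet. The 0.01% libraries lay within a narrow band, the 4% libraries all lay above it, and the 0.4% libraries spread from inside the band to the level of the 4% diet. bta-miR-1434-5p fell on 0.01% NaCl, with a log2 fold change of -0.95 ± 0.25 against 0.4% (quasi-likelihood test in edgeR, Benjamini-Hochberg adjustment, adjusted p = 0.0146) and of -1.52 ± 0.26 against 4% (adjusted p = 0.00164). blv-miR-B3-3p, a name from bovine leukaemia virus, was at 8.43 ± 2.32 scaled CPM on 0.01% and 15.7 ± 4.46 on 0.4% NaCl (-0.89 ± 0.23, adjusted p = 0.0118). The name alone gives no evidence of a virus, since the row's reads were not inspected. dps-miR-1002-3p, a fly name, had 32 reads in all on 0.01% and 101 on 0.4% NaCl (-1.64 ± 0.53, adjusted p = 0.0405). mmu-miR-149-5p stood at 25.3, 26, 28.6, 25.7 and 17.7 scaled CPM in libraries 1 to 5 of the 0.01% diet, at 24.6, 36.7, 28.1, 40.2 and 57.5 in those of the 0.4% diet and at 43, 41.3, 38.8, 41.8 and 43.2 in those of the 4% diet. The 0.4% libraries of mmu-miR-149-5p spread from the range of the 0.01% diet to above all others, and its difference was -0.60 ± 0.20 (adjusted p = 0.0472).

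With 1 library left out at a time, 4 of the 10 calls held in all 15 refits, those of bta-miR-3601, dme-miR-4949-5p, bta-miR-1434-5p and blv-miR-B3-3p (edgeR). dme-miR-10-3p lost its call with library 1 on 0.01% NaCl or library 5 on 0.4% NaCl left out (adjusted p up to 0.0606). mmu-miR-676-5p lost its call with library 1 or 5 on 0.01% NaCl or library 1 or 5 on 0.4% NaCl left out (adjusted p up to 0.0809). hsa-miR-574-3p lost its call with library 1, 2, 3 or 5 on 0.01% NaCl, library 2 or 5 on 0.4% NaCl or library 1 on 4% NaCl left out (adjusted p up to 0.1), and bta-miR-669 without the same libraries (up to 0.104). dps-miR-1002-3p lost its call with library 1, 2, 3 or 5 on 0.01% NaCl, library 1, 2 or 4 on 0.4% NaCl or library 1 on 4% NaCl left out (adjusted p up to 0.108). mmu-miR-149-5p lost its call with library 1, 2, 3, 4 or 5 on 0.01% NaCl, library 2, 4 or 5 on 0.4% NaCl or library 1, 2, 3 or 4 on 4% NaCl left out (adjusted p up to 0.122), and so held in 3 of 15 refits. Calls were lost on library totals without TMM factors by bta-miR-3601, bta-miR-669, hsa-miR-574-3p and mmu-miR-676-5p, with the 2 diets alone by bta-miR-669, hsa-miR-574-3p and mmu-miR-149-5p, with upper-quartile factors by dme-miR-10-3p, and in limma-voom by dps-miR-1002-3p and mmu-miR-149-5p (adjusted p up to 0.178). mmu-miR-149-5p also lost its call with DESeq2 size factors, without the filter, with only names averaging 10 CPM or more and without robust estimation. The number of lower calls was 10 without library 2 of the 0.01% diet, and 2 without library 1, 3 or 5 of that diet or library 2 or 4 of the 0.4% diet. Shares of all names called are given only for the edgeR fit on all libraries with TMM factors. Counts from other fits, here and below, have no such background. The number of higher calls was 2 without library 1 of the 0.01% diet or library 5 of the 0.4% diet, and 3 without library 5 of the 0.01% diet. With no TMM factors, only library totals, the split was 2 higher and 9 lower, and the median of all names then moved from -0.0027 to -0.19, so that directions here are relative to the TMM scaling.

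Between 4% and 0.4% NaCl, the high-salt comparison, 0 of 113 members passed, beside 0% of all names tested (quasi-likelihood test in edgeR, Benjamini-Hochberg adjustment). DESeq2 and limma-voom also called 0. At an unadjusted p under 0.05 there were 11 members, or 9.73%, beside 5.2% of all names. The groups did not overlap for 1 member, mmu-miR-1195, beside 0.771% of all names. The 5 smallest p belonged to mmu-miR-5099 (1.00 ± 0.32), mmu-miR-1195 (0.51 ± 0.17), mmu-miR-6239 (0.91 ± 0.32), mmu-miR-690 (1.55 ± 0.54) and bta-miR-1940 (1.03 ± 0.38), given as log2 fold change ± SE, with adjusted p of 0.449 for the first 4 and 0.532 for the last. mmu-miR-1195 stood at 30.4, 29.2, 24.9, 28.8 and 29.3 scaled CPM in libraries 1 to 5 of the 0.4% diet and at 53.9, 42, 33.7, 40.5 and 33.7 in those of the 4% diet. The 4% libraries all lay above, and 1 of them stood well apart at the top.

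The most calls came from the ends of the salt range, 0.01% and 4% NaCl. dme-miR-10-3p, bta-miR-3601, mmu-miR-676-5p, bfl-miR-10a-3p and mmu-miR-1957a rose on 0.01% NaCl, with log2 fold changes from 0.57 to 1.11. Names that fell included bta-miR-1434-5p, bta-miR-1940, mmu-miR-3535, mmu-miR-1195 and mmu-miR-709, and the values of those that fell ran from -2.18 to -0.62, apart from that of hco-miR-5941. In all, 5 members were higher and 16 lower (18.6% of 113), beside 20.4% of all names (7.32% higher and 13.1% lower). The diets did not overlap for 17 members, beside 14.6% of all names. The members' median log2 fold change was -0.19 and that of all names -0.0099. The members' median was -0.12 without library 1 of the 0.01% diet and -0.11 without library 5 of the 4% diet, but -0.35 without library 2 of the 0.01% diet, -0.30 and -0.29 without library 2 or 3 of the 4% diet, -0.30 with upper-quartile factors and -0.42 on library totals without TMM factors. This comparison and the one with 0.4% NaCl share the 0.01% libraries: 24 members were called in either and 7 in both. A test of any difference among the 3 diets called 13 members (11.5%), beside 16.4% of all names.

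Apart from hco-miR-5941, the largest difference among the called names was in bta-miR-1940. bta-miR-1940 stood at 4.21, 6.55, 1.5, 3.56 and 2.45 scaled CPM in libraries 1 to 5 of the 0.01% diet, at 8.15, 9.21, 8.83, 8.7 and 5.85 in those of the 0.4% diet and at 32.2, 8.64, 8.38, 14.6 and 19.4 in those of the 4% diet. All 0.01% libraries lay below all 4% libraries, of which 1 stood far above the rest, and the 0.4% libraries overlapped both. Its log2 fold change was -2.18 ± 0.40 (quasi-likelihood test in edgeR, Benjamini-Hochberg adjustment, adjusted p = 0.00281).

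mmu-miR-3535 stood at 100.3, 102, 81.4, 102 and 92 scaled CPM in libraries 1 to 5 of the 0.01% diet, at 146, 101, 87.9, 179 and 108 in those of the 0.4% diet and at 216, 131, 165, 196 and 163 in those of the 4% diet. The 0.01% libraries again lay in a narrow band below every 4% library. The difference was -0.87 ± 0.19 (quasi-likelihood test in edgeR, Benjamini-Hochberg adjustment, adjusted p = 0.00692). mmu-miR-1195, named above for its order between the other diets, was at 25.1, 29.3, 22.3, 25.9 and 15.1 scaled CPM in the 0.01% libraries, all below the 4% libraries (-0.79 ± 0.18, adjusted p = 0.00692). The pig name ssc-miR-1285 was at 28.8 ± 4.83 on 0.01% and 44.4 ± 5.59 on 4% NaCl (-0.62 ± 0.15, adjusted p = 0.0113), with no overlap. The hamster name of the same number, cgr-miR-1285, was at 16.9 ± 6.81 and 34.8 ± 9.39 (adjusted p = 0.0388), with overlap. mmu-miR-149-5p, given by library above, lay below every 4% library on 0.01% NaCl (-0.75 ± 0.20, adjusted p = 0.0153). blv-miR-B3-3p (-0.87 ± 0.23) and mmu-miR-709 (-1.48 ± 0.40) did so too, the second at 2.41 ± 1.1 against 6.79 ± 2.28 scaled CPM.

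The remaining lower names were hsa-miR-1303 (-0.79 ± 0.24), the roundworm names hco-miR-5978 (-0.86 ± 0.28) and hco-miR-5941, the platypus name oan-miR-1386 (-0.71 ± 0.23), hsa-miR-499b-3p (-0.97 ± 0.30), dps-miR-1002-3p (-1.69 ± 0.53) and the sea urchin name spu-miR-5993 (-1.53 ± 0.52). Adjusted p for them ran from 0.0271 to 0.0467 in edgeR's quasi-likelihood test. hco-miR-5941 had 6 reads in all on 0.01% and 106 on 4% NaCl, a ratio of 0.0504 with an exact 95% counting interval of 0.0181 to 0.113, and on 4% its libraries ran from 0.216 to 7.61 scaled CPM. The interval covers counting error only. The 5 higher names were dme-miR-10-3p, bta-miR-3601, mmu-miR-676-5p (1.11 ± 0.28), bfl-miR-10a-3p and mmu-miR-1957a (0.82 ± 0.23, adjusted p = 0.0197), which went from 3.21 ± 0.368 scaled CPM on 4% to 5.66 ± 1.17 on 0.01% NaCl. For mmu-miR-676-5p the adjusted p was 0.012.

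In refits without 1 library, 11 of these 21 calls held in all 15 (edgeR). bfl-miR-10a-3p lost its call with library 1 on 0.01% NaCl left out (adjusted p up to 0.0677). mmu-miR-1957a lost its call with library 3 on 0.01% NaCl left out (adjusted p up to 0.0623). cgr-miR-1285 lost its call with library 1, 3 or 5 on 0.01% NaCl or library 1, 2, 4 or 5 on 4% NaCl left out (adjusted p up to 0.0865). dps-miR-1002-3p lost its call with library 1, 2, 3 or 5 on 0.01% NaCl or library 3 on 4% NaCl left out (adjusted p up to 0.0786). hco-miR-5941 lost its call with library 1, 3 or 5 on 0.01% NaCl or library 1 or 4 on 4% NaCl left out (adjusted p up to 0.0583). hco-miR-5978 lost its call with library 1, 2 or 3 on 0.01% NaCl or library 1 or 4 on 4% NaCl left out (adjusted p up to 0.102). hsa-miR-1303 lost its call with library 1 or 5 on 0.01% NaCl or library 1, 2 or 5 on 4% NaCl left out (adjusted p up to 0.0667). hsa-miR-499b-3p lost its call with library 1, 3 or 5 on 0.01% NaCl or library 2 or 5 on 4% NaCl left out (adjusted p up to 0.0882). oan-miR-1386 lost its call with library 1, 2, 3 or 5 on 0.01% NaCl, library 2 or 3 on 0.4% NaCl or library 4 or 5 on 4% NaCl left out (adjusted p up to 0.13). spu-miR-5993 lost its call with library 1, 2, 3 or 5 on 0.01% NaCl, library 2 on 0.4% NaCl or library 1, 2, 4 or 5 on 4% NaCl left out (adjusted p up to 0.107). Calls were lost on library totals without TMM factors by bfl-miR-10a-3p, bta-miR-3601 and mmu-miR-1957a, in limma-voom by dps-miR-1002-3p, hco-miR-5941, hco-miR-5978 and spu-miR-5993, without the filter by hco-miR-5978, oan-miR-1386 and spu-miR-5993, in DESeq2 by hsa-miR-499b-3p, and with DESeq2 size factors by spu-miR-5993 (adjusted p up to 0.116). The number of lower calls was 8 without library 1 of the 0.01% diet and 9 without library 3 or 5 of that diet, and the number of higher calls was 8 without library 4 of it. The joint test called 8 without library 5 of the 0.01% diet. On library totals without TMM factors the split was 2 higher and 24 lower, the median of all names being -0.25.

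**Figure D3:**
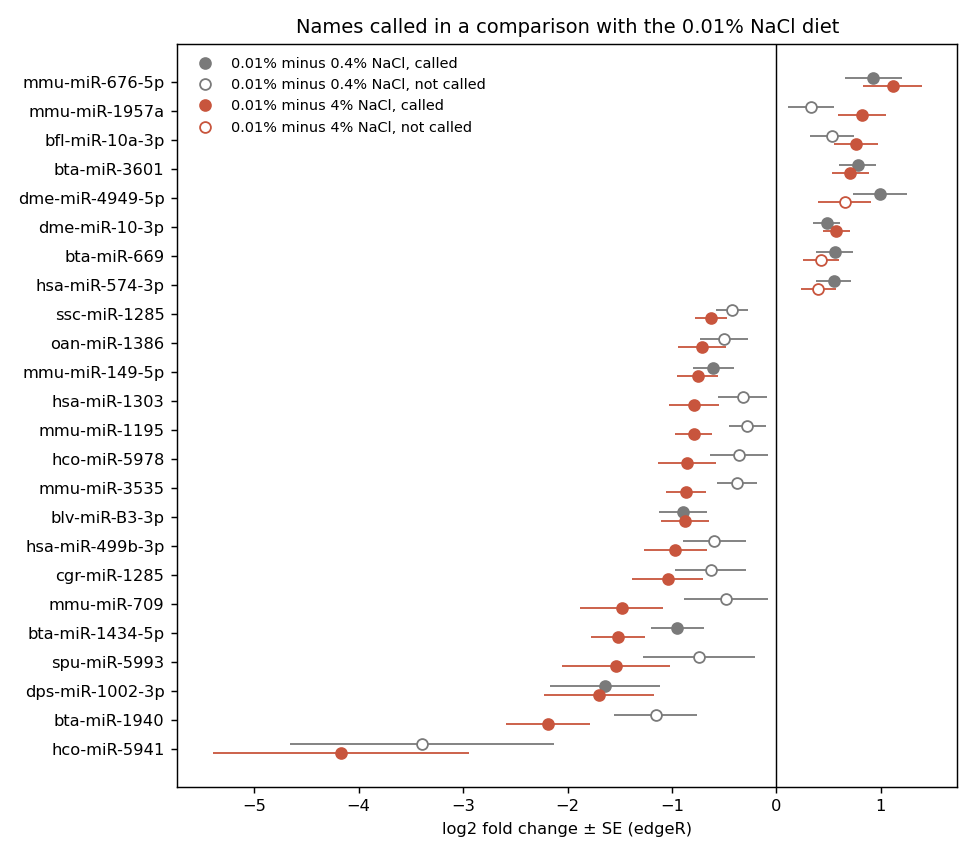
Log2 fold change ± SE (x axis) for the 24 members called against 0.4% or 4% NaCl, with filled points for calls and open points for values that did not pass. 8 names lie to the right of 0 and 16 to the left in both comparisons, which share the 0.01% libraries.

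**Figure D4:**
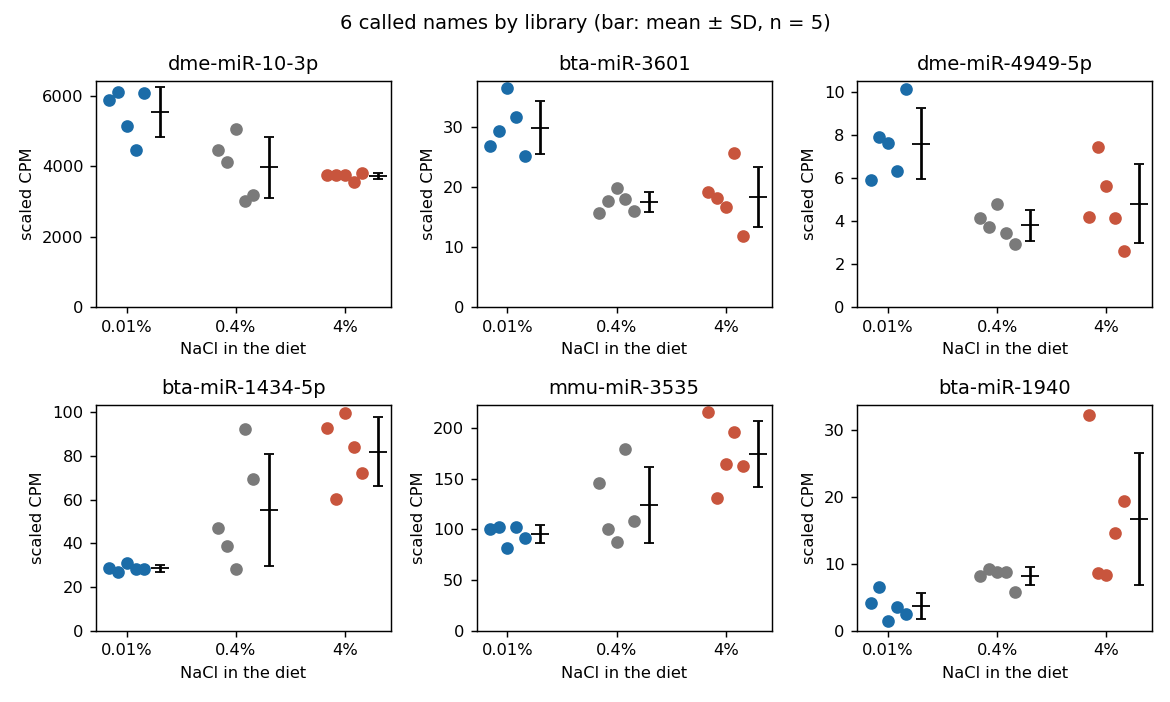
Scaled CPM (y axis) in each of the 5 libraries per diet (points) with mean ± SD beside them, for 6 called names. The 0.01% libraries of bta-miR-1434-5p and mmu-miR-3535 lie in a narrow band below all 4% libraries, and those of dme-miR-4949-5p lie above all 0.4% libraries.

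Spread within the diets was wide for some members and is described here with no test. Over the 32 members with a mean of at least 200 reads, the largest coefficient of variation within a diet had a median of 32.9%, beside 22.4% for the 195 rat names of that depth. It exceeded 100% for 6 members and for 0 rat names, whose highest was 73.2%, while 11 members stayed under 25%. The 5 with the largest values were mmu-miR-5106 (215%), mmu-miR-6238 (147%), sha-miR-716b (141%), mmu-miR-6240 (140%) and hsa-miR-3168 (123%). No function in the kidney is given for them here.

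mmu-miR-6240 stood at 48.2, 560.5, 52.8, 53.3 and 86.2 scaled CPM in libraries 1 to 5 of the 0.01% diet, at 137, 112, 156, 530.1 and 233 in those of the 0.4% diet and at 206.02, 62.3, 68, 140.1 and 448 in those of the 4% diet. In each diet 1 library was highest: library 2 on 0.01%, library 4 on 0.4% and library 5 on 4% NaCl. The first 2 stood far above the rest of their diets, while on 4% NaCl library 1 came nearer, at 206.02 against 448. sha-miR-716b stood at 24.7, 264, 29.1, 32.1 and 23.9 scaled CPM in libraries 1 to 5 of the 0.01% diet, at 102, 69.2, 56.2, 453 and 103 in those of the 0.4% diet and at 166, 16.4, 23.1, 49.2 and 329 in those of the 4% diet. The same 3 libraries were highest for this Tasmanian devil name. mmu-miR-6238 stood at 13.4, 201, 19, 19.2 and 23.9 scaled CPM in libraries 1 to 5 of the 0.01% diet, at 55.9, 55.5, 49.2, 281 and 98.8 in those of the 0.4% diet and at 102, 8.3, 20.2, 23.1 and 165 in those of the 4% diet. They were again the highest of their diets. Neither mmu-miR-6240 nor mmu-miR-6238 passed with all libraries (edgeR, adjusted p = 0.653 and 0.506 for 0.01% against 0.4%). Without library 2 of the 0.01% diet both were lower on 0.01% NaCl, with a log2 fold change of -1.97 for mmu-miR-6240 (edgeR, adjusted p = 0.0319) and -2.53 for mmu-miR-6238 (0.0381). That refit takes out the peak of the 0.01% diet and keeps those of the other diets. Lower values on 0.01% NaCl follow from that choice and are no evidence of a diet difference. Without the 3 highest libraries, an alternative added after the data were seen, the values were -1.37 (0.0164) and -1.74 (0.0465).

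Names that followed mmu-miR-6240 were then collected by a rule set after its values were seen: the highest library of each diet is the same as for mmu-miR-6240, and it is at least 2 times the median of the other 4. Of 108 members with a mean of at least 10 reads, 18 met it, mmu-miR-6240 included, against 0 of 384 rat names and 0 of the 9 names held apart. Since the rule chose them on these values, this is a description with no test. Besides those above they were hsa-miR-4792, bta-miR-2487, hsa-miR-7704, mmu-miR-6236, bta-miR-2904, bta-miR-2887, hhv6b-miR-Ro6-1-3p, mmu-miR-2137, hsa-miR-3195, cin-miR-4171-5p, hsa-miR-4497, ame-miR-3776, ssc-miR-4332, hsa-miR-718 and hsa-miR-4532. Their codes run over mouse, human, cattle, pig, Tasmanian devil, sea squirt, honey bee and a herpesvirus. None of the 18 has a rat row of the same number, which also holds for most members (112 of 146). The median ratio of the high library to the other 4 was 9.12 on 0.01%, 5.27 on 0.4% and 4.52 on 4% NaCl. Just inside the rule, the lowest ratio was 2.26, for mmu-miR-2137 on 4% NaCl, and 1 further member was highest in the same libraries but below 2 times in at least 1 diet. With no minimum ratio, 19 of the 108 members and 3 of the 384 rat names were highest in these 3 libraries.

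Together the 18 held 0.157% of reads in library 2 of the 0.01% diet, against 0.0165% to 0.0249% in its other 4 libraries. In library 4 of the 0.4% diet they held 0.246%, against 0.0433% to 0.0889%, and in library 5 of the 4% diet 0.165%, against 0.0219% to 0.0929%. Totals of the 3 libraries were 6.51, 4.79 and 4.52 M reads, within the range of the others, and their TMM factors were 0.892, 1.15 and 1.03. Library 4 of the 0.4% diet had the highest TMM factor of all libraries and the lowest total of its diet. Its share of reads under the members without the 18, 2.10%, was also the highest. All 18 were tested, and 0 were called in the comparison of 0.01% with 0.4%, of 0.01% with 4% or in the joint test. Without library 2 of the 0.01% diet, 5 of the 18 were lower on 0.01% than on 0.4% NaCl and 1 than on 4%. The rule chose the 18 as highest in that library, so leaving out it alone lowers them on 0.01% NaCl by construction. These calls are therefore no evidence of a diet difference. The part of depth in these peaks was not tested. Without the 3 libraries, 6 members were higher and 7 lower on 0.01% than on 0.4% NaCl, and 5 higher and 14 lower than on 4% NaCl. The share of all names called in that refit is not given here, so these counts are no result about the members. The median log2 fold change over the members tested was then -0.14 and -0.33, and over all names 0.039 and -0.0089. Of the 18 names themselves, 3 were lower in the first comparison and 2 in the second, without the libraries on whose values they were chosen. Calls lost without these libraries were those of bta-miR-1434-5p, bta-miR-669, dme-miR-10-3p, dps-miR-1002-3p and mmu-miR-149-5p against 0.4% NaCl (adjusted p up to 0.144), and against 4% (up to 0.176) those of blv-miR-B3-3p, cgr-miR-1285, dps-miR-1002-3p, hco-miR-5978, hsa-miR-1303, hsa-miR-499b-3p, mmu-miR-149-5p, oan-miR-1386 and spu-miR-5993.

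**Figure D5:**
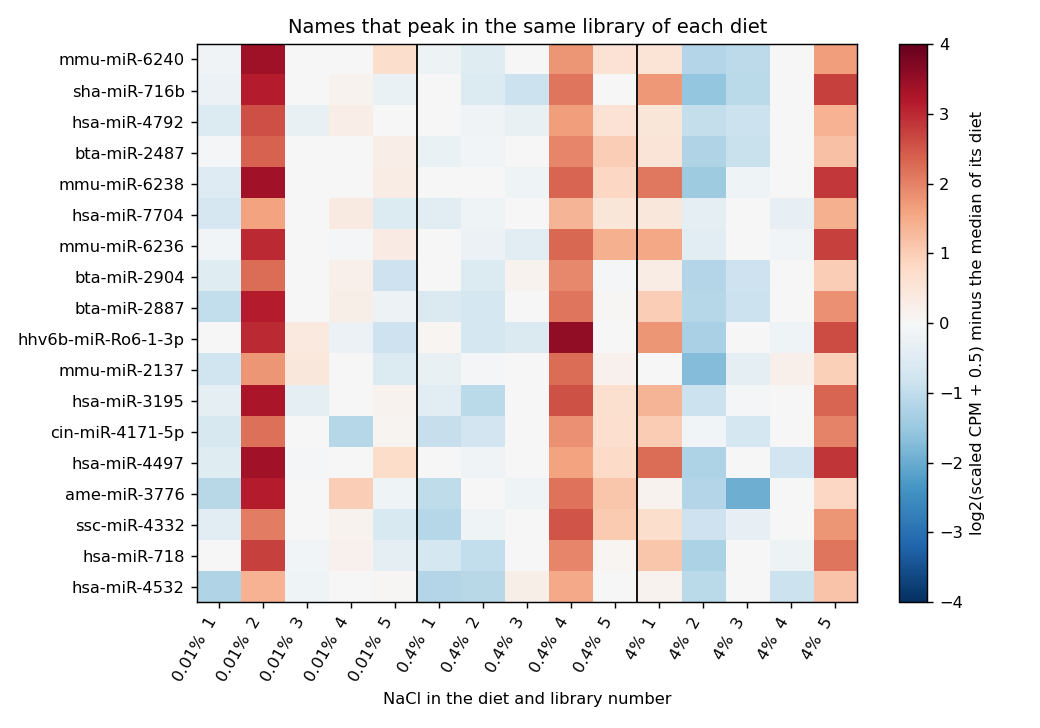
Log2(scaled CPM + 0.5) minus the median of its diet (colour) for the 18 names that peak together (rows) in 15 libraries (columns, diet and library number). Library 2 of the 0.01% diet, library 4 of the 0.4% diet and library 5 of the 4% diet are the highest of their diets for all 18, by the rule that chose the names.

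mmu-miR-5106 peaked in other libraries than mmu-miR-6240 on 0.01% and 4% NaCl, and in the same library, number 4, on 0.4% NaCl. mmu-miR-5106 stood at 127, 34.4, 0.499, 1.55 and 0 scaled CPM in libraries 1 to 5 of the 0.01% diet, at 1.63, 3.74, 2.01, 265 and 1.3 in those of the 0.4% diet and at 1.4, 271, 4.56, 0.218 and 22.9 in those of the 4% diet. Single libraries, the first on 0.01%, the fourth on 0.4% and the second on 4% NaCl, held most of its reads, and it was listed at 0 in 1 library. hsa-miR-3168 stood at 54.7, 955, 918, 49.6 and 20.3 scaled CPM in libraries 1 to 5 of the 0.01% diet, at 54.1, 57.2, 99.4, 1521 and 1069 in those of the 0.4% diet and at 265, 69.9, 121.73, 167 and 86.3 in those of the 4% diet. hsa-miR-3168 was high in 2 libraries of the 0.01% diet and 2 of the 0.4% diet, the highest of each being that of mmu-miR-6240. In the 4% diet no library was high to that extent. Neither mmu-miR-5106 nor hsa-miR-3168 passed in any comparison (edgeR, smallest adjusted p = 0.797 and 0.404). bta-miR-2478, the ninth by reads, held 156 ± 82.3, 209.7 ± 80.7 and 224 ± 30.8 scaled CPM on the 3 diets and was lower on 0.01% than on 4% NaCl in 1 refit only, without library 4 of the 0.01% diet (adjusted p = 0.0301, edgeR). cgr-miR-1260 averaged 896 reads, and its number is that of human names reported as fragments of transfer RNA.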

How the data were processed

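Small RNA of rat kidney cortex was counted in 15 libraries, 5 per diet. Per the labels' protocols, the kit was TruSeq small RNA and the sequencer an Illumina HiSeq. Bowtie, cutadapt and DESeq are named in the submitters' processing notes. How reads matching more than 1 name were counted, and against which database and genome build, is not given in the sources used here. Raw read counts for 600 mature miRNA names were deposited by the authors. The 90 per-sample columns inside the authors' comparison tables were not used.

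Counts were tested with edgeR 4.0.16 in R 4.3.3 (TMM factors, filterByExpr, robust quasi-likelihood fit of 3 diet means, 12 residual degrees of freedom). The fit covered all 519 names that passed the filter, with Benjamini-Hochberg adjustment over them and a threshold of 0.05. The steps were tested on simulated data. Totals of 4.17 to 7.83 M reads limit precision most for the 38 members with a mean under 10 reads. DESeq2 1.42.0, limma-voom (limma 3.58.1), other scalings and filters, and each library left out were tried as alternatives. Steady pairs were found from log2 ratios of counts plus 0.5.

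The members, lists and rules were chosen with earlier results of these data known. Names in the text are all called members, the 5 smallest p where fewer than 5 were called, and the 10 most abundant members. Those of steady pairs, the 5 with the largest variation within a diet, and some rat rows of the same number are also named. The names that peak with mmu-miR-6240, hsa-miR-3529-3p, mmu-let-7g-5p, mmu-miR-1247-5p, mmu-miR-142b, hsa-miR-148a-5p and cgr-miR-1260 were added after values were seen.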

Additional observations from a re-analysis of the deposited data

Results flagged for a closer look

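Within diets of 5 libraries, 1 library of a named member was set apart where its gap to the nearest other exceeded the share of the range that Dixon's test allows. Of 117 groups (39 members in 3 diets), 16 were set apart. Among the 39 are 5 members named because their variation within a diet was largest. The 16 can therefore not be set against the about 1 in 20 groups that chance sets apart. Of the 16, 9 come from those members, in scaled CPM. mmu-miR-6240 reached 560.5 in library 2 of the 0.01% diet and 530.1 in library 4 of the 0.4% diet. mmu-miR-6238 reached 201 and 281, and sha-miR-716b 264 and 453, in the same 2 libraries. mmu-miR-5106 reached 127 in library 1 of the 0.01% diet, 265 in library 4 of the 0.4% diet and 271 in library 2 of the 4% diet.

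The other 7 were single values. dme-miR-10-3p was low at 3559 in library 4 of the 4% diet, where the other 4 libraries were close together. dps-miR-1002-3p was high at 5.83 and hsa-miR-574-3p at 62.1 in library 3 of the 4% diet. mmu-miR-676-5p was high at 5.07 and ppy-miR-151b low at 959.6 in library 5 of the 0.01% diet. gga-miR-1766 was low at 2003 in library 2 of the 0.01% diet, and mmu-miR-5099 high at 14.0 in library 4 of the 0.4% diet.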

How the results depend on the processing

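No value named as a change reversed its direction under any alternative run. Values of called or smallest-p members, rat miR-10a-5p and rat miR-542-5p were followed. Of 424 under other settings, 379 kept their side of the threshold and 45 lost it. Of 600 with 1 library left out, 497 kept it, 101 lost it and 2 gained it. The 2 gained were both of rat miR-10a-5p for 0.01% against 0.4% NaCl. The smallest-p members of 4% against 0.4% NaCl had no call to lose and are among those that kept their side. On 0.01% against 0.4% NaCl, the 6 higher were 2 with library totals only, and the 4 lower were 9 with library totals only, 2 with only names averaging 10 CPM or more (fewer names are then tested), 2 with limma-voom and 7 without the 3 libraries highest in mmu-miR-6240, which was chosen after seeing the data. On 0.01% against 4%, the 5 higher were 2 with library totals only and 8 with DESeq2, and the 16 lower were 10 with that stricter minimum. With 1 library left out the counts ran from 2 to 8 and from 2 to 10 in the first comparison, from 4 to 8 and from 8 to 18 in the second, and from 8 to 17 in the joint test. The share of reads was 2.01 on 0.01%, 2.16 on 0.4% and 2.10 on 4% NaCl per 100 reads of rat names. It was 11.7%, 13.7% and 14.1% with the 9 names held apart put back. With an SD under 0.1, 5 members had a steady partner. The cause of these shifts was not tested. No paired analysis was possible because the labels number no replicates and the numbers given here only name libraries. Depth limits low names most, and the lowest mean of a called member was 10 reads, for hsa-miR-499b-3p.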
